A study of Mus musculus with 81 samples.

Results

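Transcripts of 39 named genes that carry glucose into the cell and pass it through glycolysis, glycogen and the pentose phosphate pathway were examined in neutrophils of inbred mice. The genes were chosen by name. Each was represented by its brightest probe set (a group of array probes for 1 transcript) among those with a single symbol in the platform annotation. Of the 39 genes, 35 were measured, among 19752 genes and 24922 probe sets in all. Gpi1, Pfkfb1, Eno1 and G6pdx did not match such a probe set and are not analysed here. The symbols are those of the platform's table.

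Neutrophils depend on glycolysis for most of their energy, make little ATP in their mitochondria, and store glycogen for use where oxygen and glucose run short. Hexokinases trap glucose as a phosphate, phosphofructokinase commits it to glycolysis, and lactate leaves the cell through a monocarboxylate carrier. The Pfkfb enzymes make and break the sugar bisphosphate that switches phosphofructokinase on, while fructose bisphosphatase (Fbp1) runs that step backwards. The pentose phosphate branch supplies the NADPH that the oxidative burst consumes.

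Cells sorted for CD11b and Ly6G came from the bone marrow of male mice. The age label gives 6 weeks and the series design says that mice were obtained at 5 weeks, and each of 81 Affymetrix arrays held RNA pooled from 2 to 3 mice. Titles place the arrays in 40 groups. The wild-derived strains were WSB/EiJ, PWD/PHJ, CAST/EiJ, MSM/Ms and JF1/Ms. The classical groups were 129S1/SvImJ, A/J, AKR/J, C3H/HeJ, C57BL/10J, C57BLKS/J(662), C57L/J (668), CBA/CaJ, CBA/J, CE/J, DDY/JclSidSeyFrkJ, FVB/NJ, KK.Cg-Ay/J, LGJ, LP/J(676), MA/MyJ, MRL/MpJ, NOD/ShiLtJ, NON/ShiLtJ, NOR/LtJ, NZB/BINJ, NZW/LacJ, P/J, PL/J, RIIIS/J, SEA/GnJ, SJL/J, SM/J, SWR/J, 5 groups of conflicting labels and C57BL/6J. KK.Cg-Ay/J carries the yellow agouti allele Ay, and no group received a treatment. There were 5 arrays of C57BL/6J, 1 each of SWR/J and FVB/NJ, and 2 of each of the other 37 groups. The 5 groups in conflict, with 10 arrays, are called titled BPL (background label BALB/cByJ), titled BTBR (BPL/1J), titled Balb (BTBR T+ tf/J), titled C57BR (CBA/CaJ) and titled DBA2 (DBA/1LacJ).

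All 13 neutrophil markers were bright in every group, with Ly6g between 13.44 and 13.88 and Itgam, which encodes CD11b, between 12.45 and 12.80 on the log2 scale. Transcripts of other cells also varied between groups: 4 of 9 T and NK cell genes passed the F test described below, with Cd3d between 6.20 in titled C57BR and 10.23 in FVB/NJ but Cd3e over a range of 0.38 that did not pass, and the mean of 19 cell-cycle genes ran between 6.94 in NOR/LtJ and 9.59 in NON/ShiLtJ. NZB/BINJ replicate 1 stood furthest from the other arrays, with a median correlation of 0.962. All values below are log2 intensities of a probe set, so a difference of 1 is a doubling, and levels are compared between strains and never between genes.

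Of the members, 5 were dim, with a mean below 7: Pfkm (6.13), Aldoc (6.69), Ldhb (6.31), Pygm (6.97) and Pdk1 (5.67). The other 30 reached a mean of at least 7. Members with a mean above 12 were Slc2a3 (12.70), Pgd (12.67), Aldoa (12.37), Ldha (12.27) and Pygl (12.21).

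The 300 bases around the annotated starts of Pfkfb2, Fbp1, Pfkp and Slc2a1 are shown because these members separated the strains or origins most. Yod1 is shown because it starts beside Pfkfb2 and varied with it. The sequences are those of RefSeq on GRCm38.p6, each with 250 bases before the start and 50 after it, read 5′ to 3′ on the gene's own strand. Capitals mark ACGTG or GCGTG on either strand, the core that hypoxia-inducible factors can bind. The windows are chr1:130715772-130716071 (minus strand, Pfkfb2, the first of 3 annotated starts), chr1:130717077-130717376 (plus, Yod1), chr13:62888233-62888532 (minus, Fbp1), chr13:6648722-6649021 (minus, Pfkp) and chr4:119108495-119108794 (plus, Slc2a1).
Pfkfb2: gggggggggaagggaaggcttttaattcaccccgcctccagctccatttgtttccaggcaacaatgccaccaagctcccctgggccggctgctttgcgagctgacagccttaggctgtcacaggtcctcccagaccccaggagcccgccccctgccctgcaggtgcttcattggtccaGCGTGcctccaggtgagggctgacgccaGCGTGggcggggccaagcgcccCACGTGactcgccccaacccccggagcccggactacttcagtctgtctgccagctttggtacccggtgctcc
Yod1: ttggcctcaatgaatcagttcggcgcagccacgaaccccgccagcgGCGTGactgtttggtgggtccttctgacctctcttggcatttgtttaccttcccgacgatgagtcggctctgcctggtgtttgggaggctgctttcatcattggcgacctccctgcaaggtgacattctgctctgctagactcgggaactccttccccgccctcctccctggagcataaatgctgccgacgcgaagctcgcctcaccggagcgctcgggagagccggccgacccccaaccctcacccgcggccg
Fbp1: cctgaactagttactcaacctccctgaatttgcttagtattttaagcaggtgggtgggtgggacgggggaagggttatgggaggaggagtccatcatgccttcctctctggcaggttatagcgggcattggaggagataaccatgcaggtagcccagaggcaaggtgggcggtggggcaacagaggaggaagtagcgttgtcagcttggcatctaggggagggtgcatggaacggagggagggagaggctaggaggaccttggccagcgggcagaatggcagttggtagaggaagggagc
Pfkp: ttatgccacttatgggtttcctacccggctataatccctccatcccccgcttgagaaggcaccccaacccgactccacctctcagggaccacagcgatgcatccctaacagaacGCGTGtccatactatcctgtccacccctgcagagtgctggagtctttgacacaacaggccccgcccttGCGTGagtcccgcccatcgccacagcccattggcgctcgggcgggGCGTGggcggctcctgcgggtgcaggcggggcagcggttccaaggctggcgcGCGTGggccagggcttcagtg
Slc2a1: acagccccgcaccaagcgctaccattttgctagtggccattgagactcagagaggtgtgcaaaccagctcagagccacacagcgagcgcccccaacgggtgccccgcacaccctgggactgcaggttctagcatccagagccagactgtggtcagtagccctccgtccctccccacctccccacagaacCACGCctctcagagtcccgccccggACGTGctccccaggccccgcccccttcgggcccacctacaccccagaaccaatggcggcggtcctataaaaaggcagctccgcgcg

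The Pfkfb2 window held 3 capital runs, of which 1 is the palindrome CACGTG. The Yod1 window held 1 run, the Fbp1 window 0, the Pfkp window 4 and the Slc2a1 window 2. A window was found for 34 of the 35 members, and 27 of these 34 (79.4%) held ACGTG or GCGTG on either strand, against 43.8% of 32851 windows in all. GCGTG alone was in 55.9% of the members' windows and 32.4% of all, and CACGTG, which contains ACGTG, in 8.82% and 7.15%. The members' shares take the first listed window of each gene, while the shares of all count every window, so genes with several starts enter more than once. The base composition of the windows was not matched, and a match is a string of letters, not a bound site.

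Nearly all members differed among strains. In the F test of limma over the 40 groups, 34 of 35 members passed an adjusted p under 0.05, against 56% of all probe sets. Of bright probe sets, those whose mean reached 7, 84.9% passed, and 29 of the 30 members of that brightness passed. For 12 members the highest strain mean was also 2-fold or more above the lowest, against 24.5% of all probe sets. At a mean of at least 7 the counts were 11 of 30 members and 42.5% of probe sets. The median SD over strain means was 0.188 for the members and 0.141 for all probe sets, and 0.200 and 0.205 at a mean of at least 7. The members thus varied among strains about as much as other bright transcripts, while 64.5% of their variance (median of 30) lay between strains, against 55.2% for bright probe sets. Pools of mice are the replicates here, so these p-values measure the spread between pools, and fewer cells of a type in a sort and less RNA per cell cannot be told apart.

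**Figure D1:**
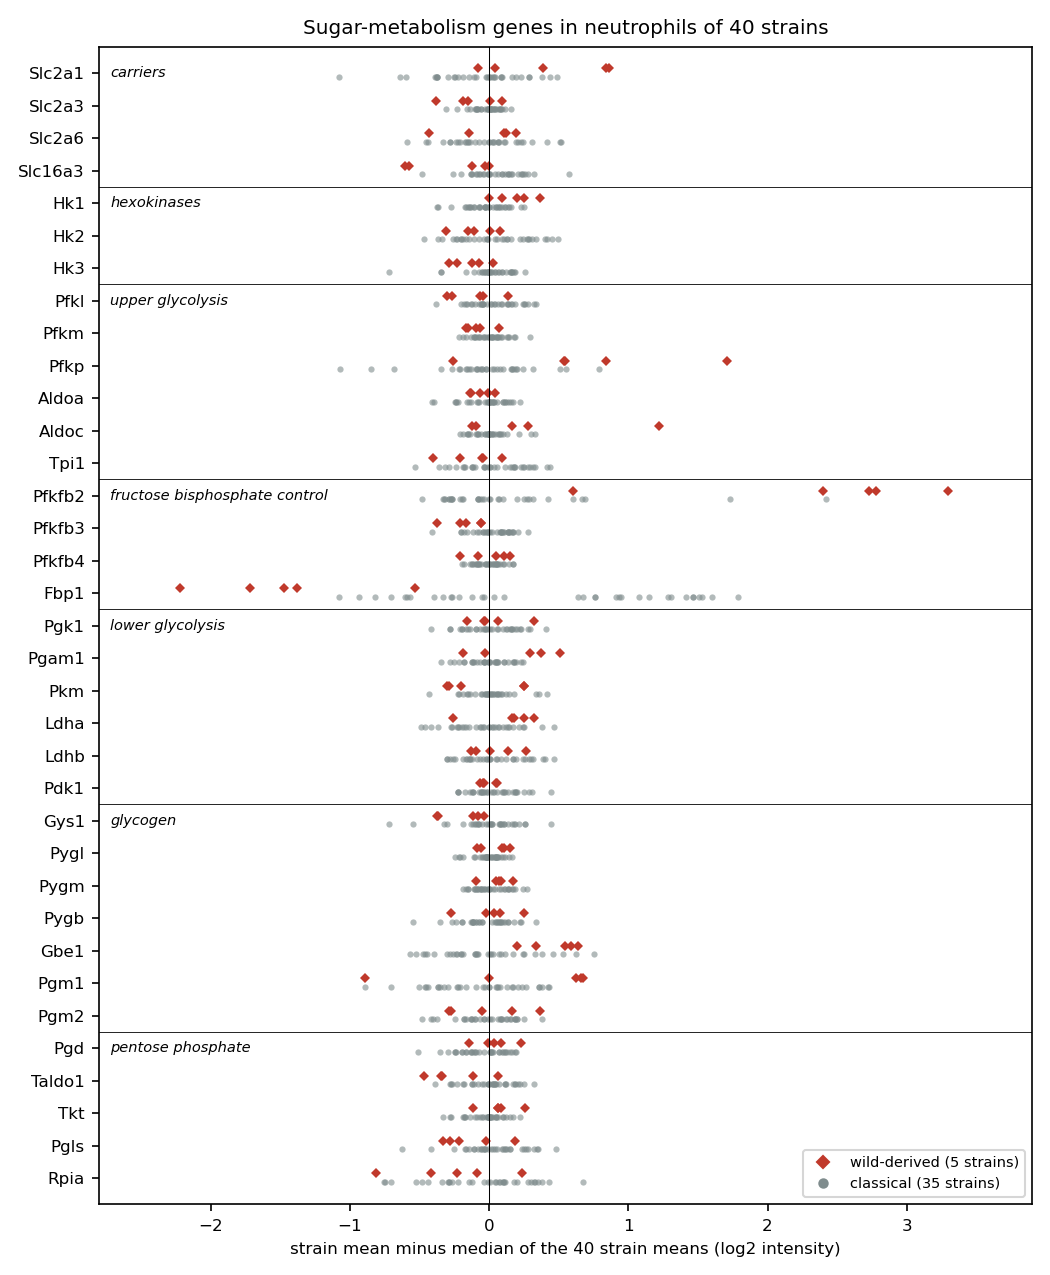
Strain means of the 35 members, each minus the median of its 40 strain means (log2 intensity), with wild-derived strains as diamonds and classical strains as circles. Fbp1, Pfkfb2 and Pfkp spread most, and the members of the lower glycolysis group, which includes Pdk1, stay within 1 log2 unit between their highest and lowest strain.

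The 3 members with the widest spread act between fructose phosphate and fructose bisphosphate. Of 7 members that act at or control that step 3 spanned 2-fold, as did 9 of the other 28, and Pfkl (0.72), Pfkm (0.51), Pfkfb3 (0.69) and Pfkfb4 (0.38) had narrow ranges. Fbp1 ranged 4.01 (16.2-fold), Pfkfb2 3.77 (13.7-fold) and Pfkp, the platelet-type phosphofructokinase, 2.78 (6.87-fold). The next were Slc2a1 (1.94), Pgm1 (1.57), Rpia (1.49), Aldoc (1.43) and Gbe1 (1.33). No member of the hexokinases (3 measured) or of lower glycolysis (6 measured) spanned 2-fold. The latter group was Pgk1, Pgam1, Pkm, Ldha, Ldhb and Pdk1, a kinase that acts on pyruvate dehydrogenase. Pfkfb4, an isoform of the Pfkfb2 enzyme, was the member that did not pass, with a range of 0.38 and an adjusted p of 0.160 (limma).

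Wild-derived strains differed from classical ones at some members, and most of these calls were lost in at least 1 alternative run of the analysis. Each strain counted as 1 replicate, and 6 members were higher (6.64% of all probe sets were) and 4 lower (5.55% of all) in 5 wild-derived strains than in 35 classical groups. Among the 30 members of a mean of at least 7, 5 were higher and 4 lower, against 7.92% and 10.8% of probe sets of that brightness. Pfkfb2 rose most and Fbp1 fell most, and these 2 kept their calls in all 97 alternatives tried. The median difference over the 35 members was -0.001, against 0.026 over all probe sets. The probes of this array follow the sequence of C57BL/6J, so a variant under a probe can lower a strain's value. Probe positions were not examined and this was not tested.

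**Figure D2:**
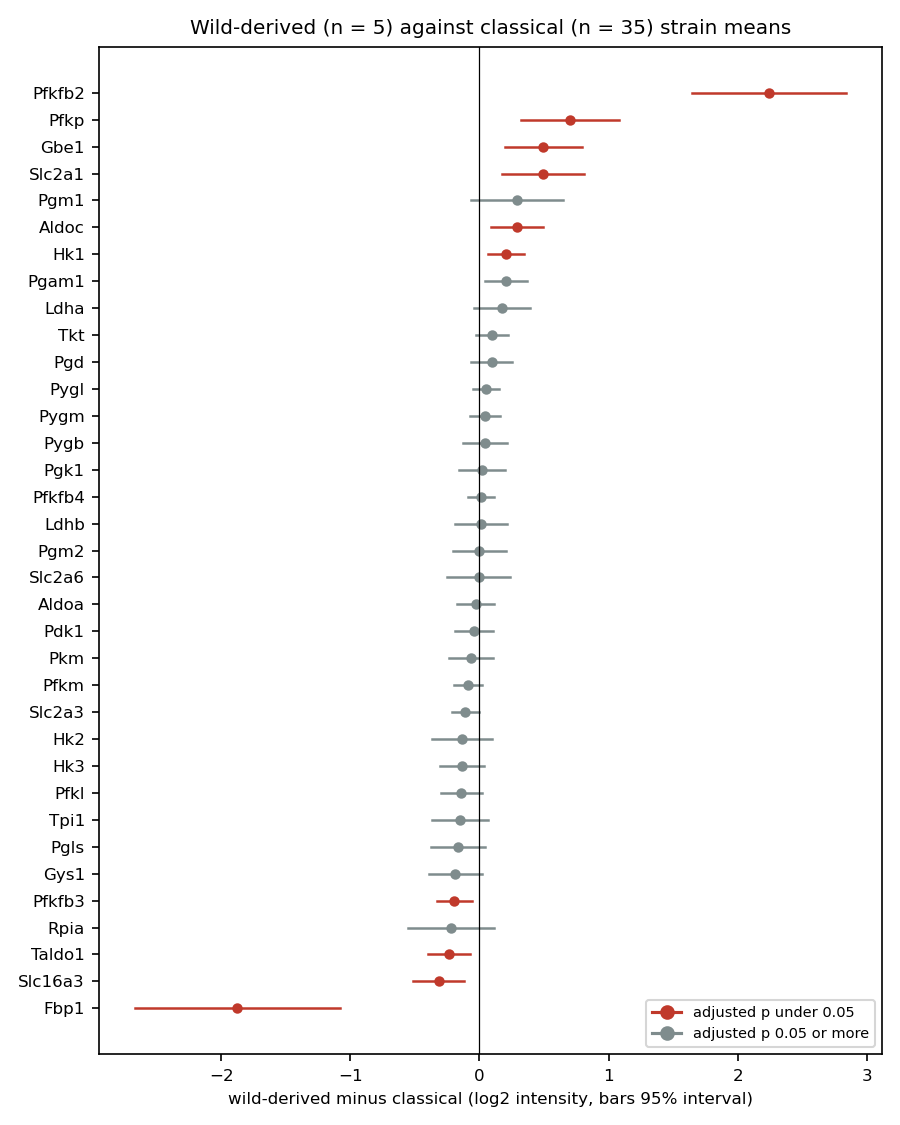
Difference between wild-derived (n = 5) and classical (n = 35) strain means for each member (log2 intensity), with 95% intervals; red marks an adjusted p under 0.05 in limma. Pfkfb2 lies at 2.25 and Fbp1 at -1.88, and the other 33 members lie between -0.32 and 0.70.

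Pfkfb2 encodes the isoform known from heart, which insulin signalling switches toward making the activator of phosphofructokinase. Its arrays read 9.68 and 9.48 in CAST/EiJ, 10.46 and 10.49 in JF1/Ms, 10.16 and 9.65 in MSM/Ms, 9.96 and 9.96 in PWD/PHJ, and 7.76 and 7.81 in WSB/EiJ. Among classical groups the lowest mean was 6.70, the median 7.13 and the highest 9.60. Both LGJ (9.46 and 9.74) and MRL/MpJ (9.22 and 8.60) lay far above the rest, and the next classical group, P/J, had 7.89 and 7.86. The 5 arrays of C57BL/6J read 6.79, 6.89, 6.69, 7.16 and 7.01. So 4 wild-derived strains and 2 classical strains were high, while WSB/EiJ lay among the higher of the other classical groups. Inbred strains are related by descent, so the high strains may not be independent cases. The means were 9.54 ± 1.03 (SD, n = 5) in wild-derived against 7.30 ± 0.58 (SD, n = 35) in classical strains. The difference was 2.25 ± 0.30 (SE), or 4.74-fold, with an adjusted p of 9.68e-07 in limma.

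Within the strains on the high side of Pfkfb2 the order was JF1/Ms (10.47), PWD/PHJ (9.96), MSM/Ms (9.91), LGJ (9.60), CAST/EiJ (9.58) and MRL/MpJ (8.91). The arrays of MSM/Ms overlapped with those of PWD/PHJ, LGJ and CAST/EiJ, whereas both arrays of JF1/Ms lay above all others. Each of the 6 exceeded C57BL/6J by between 2.00 and 3.57. Classical strains alone still spanned 2.90 for Pfkfb2, with an adjusted p of 9.15e-16 in limma.

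Yod1, a deubiquitinating enzyme, is the gene next to Pfkfb2 on chromosome 1, and the reference table gives it a span that overlaps that of Pfkfb2 on the opposite strand. The annotated starts of the 2 genes lie 1506, 1279 or 2751 bases apart, depending on which Pfkfb2 start is taken. From each of these starts the 2 genes run away from each other, so the overlap of spans does not come from these starts. Yod1 averaged 8.46 ± 0.28 (SD, n = 5) in wild-derived against 7.70 ± 0.23 (SD, n = 35) in classical strains, a difference of 0.76 ± 0.11 (SE; adjusted p = 5.66e-06, limma). Its highest strain means were JF1/Ms 8.70, CAST/EiJ 8.63, PWD/PHJ 8.56, LGJ 8.43, MSM/Ms 8.41 and MRL/MpJ 8.10, the same 6 strains that were high for Pfkfb2. Over 40 strains Pearson's r with Pfkfb2 was 0.926 and Spearman's rho 0.855, the best match among 8456 genes of a mean of at least 7. Pearson's r was 0.890 without JF1/Ms and PWD/PHJ, 0.823 over 35 classical groups, and 0.715 over 33 of them without LGJ and MRL/MpJ. These points share arrays and come from strains related by descent. Whether the probe sets of the 2 genes respond to the same transcript was not tested.

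**Figure D3:**
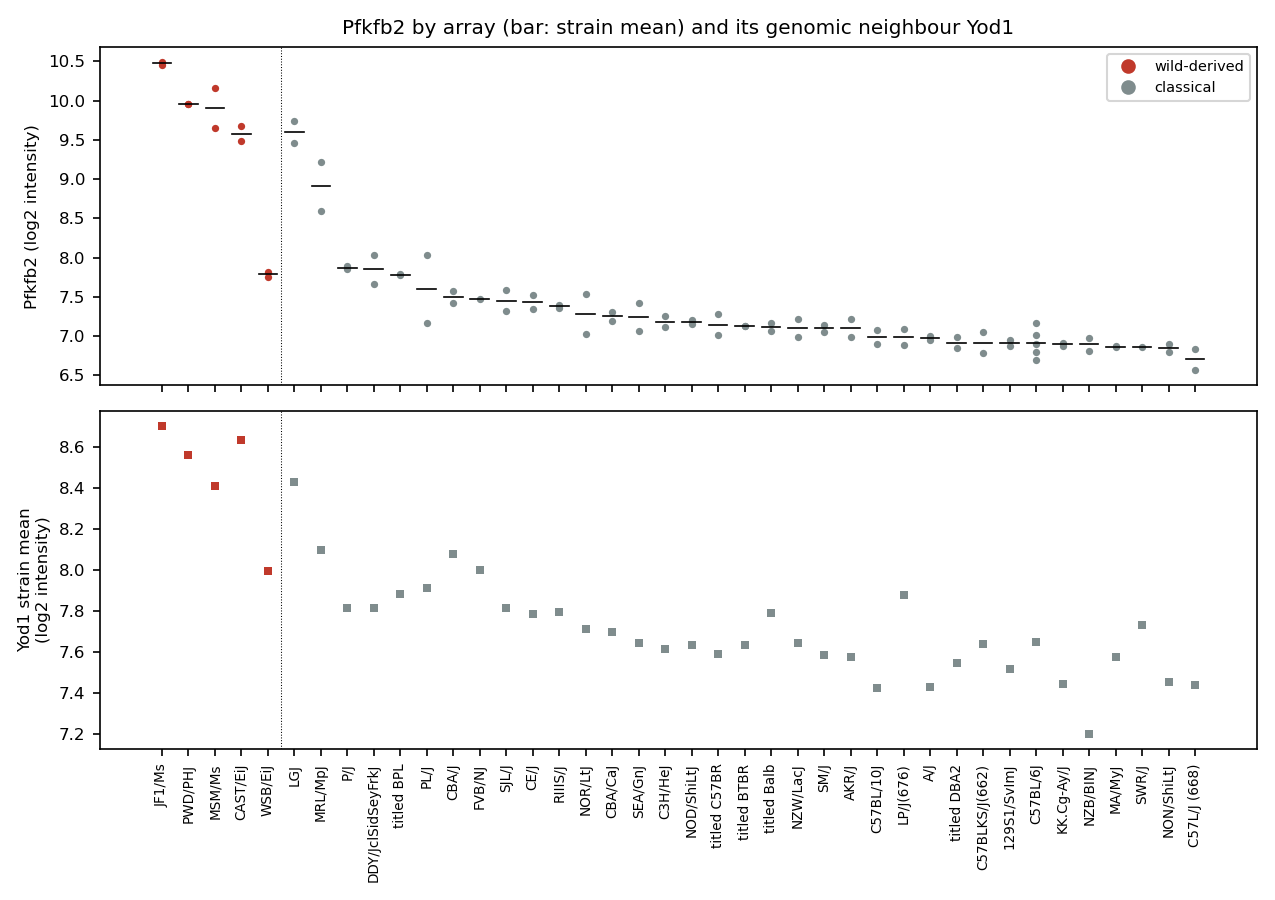
Top: Pfkfb2 in each array by strain, with a bar at the strain mean; bottom: the strain mean of Yod1 in the same order (both log2 intensity). JF1/Ms, PWD/PHJ, MSM/Ms and CAST/EiJ on the wild-derived side and LGJ and MRL/MpJ on the classical side are high for both genes.

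Of 10 measured genes around Pfkfb2, 5 on each side, 2 were called between the origins (12.2% of all probe sets were, in either direction). These were Yod1 and Cd55b, which was dim, at 0.58 ± 0.12 (SE; adjusted p = 0.00121, limma). Cd55b, Idi1 and Akr1c20 are named after their values were seen. The 2 genes next in likeness to Pfkfb2 held less well across strains. Slc16a14, a relative of the monocarboxylate carriers, also on chromosome 1, had a Pearson's r of 0.819 and a rho of 0.626, and 0.449 over the classical groups. Lilra6, a leukocyte immunoglobulin-like receptor, had -0.817 with a rho of -0.244, and 0.208 over the 33 classical groups without LGJ and MRL/MpJ, so its likeness rests on few strains.

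Pfkfb3, the isoform induced by inflammatory signals and low oxygen, moved the other way and by far less. It averaged 9.03 ± 0.13 (SD, n = 5) in wild-derived against 9.23 ± 0.14 (SD, n = 35) in classical strains, with all 5 wild-derived means below the classical median. The difference was -0.20 ± 0.07 (SE; adjusted p = 0.0469, limma), and its call was lost in 26 of 97 alternatives, with an adjusted p of up to 0.239 (limma).

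Fbp1 encodes fructose bisphosphatase, an enzyme of glucose synthesis that opposes phosphofructokinase. Its arrays read 5.79 and 6.02 in CAST/EiJ, 6.33 and 6.16 in JF1/Ms, 6.11 and 6.20 in MSM/Ms, 5.21 and 5.60 in PWD/PHJ, and 7.21 and 6.98 in WSB/EiJ. Classical means had a lowest value of 6.55 in C57L/J (668), a median of 8.27 and a highest value of 9.42 in NOR/LtJ. Of the wild-derived strains, 4 had means below every classical mean, and WSB/EiJ lay among the lower classical groups. The means were 6.16 ± 0.62 (SD, n = 5) in wild-derived against 8.04 ± 0.87 (SD, n = 35) in classical strains. The difference was -1.88 ± 0.39 (SE), or 3.67-fold, with an adjusted p of 0.000853 in limma.

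Classical strain means fell on either side of a gap for Fbp1, although single arrays nearly met across it, at 8.03 in LP/J(676) replicate 1 and 7.97 in CBA/CaJ replicate 1. The highest 18 classical means ran from 8.26 in LP/J(676) to 9.42 in NOR/LtJ, with 9.23 in NOD/ShiLtJ, 9.15 in LGJ and 9.13 in A/J. The rest began at 7.73 in CBA/CaJ and ended at 6.55. All groups with C57 in the name were on the low side: C57BL/6J at 7.06, C57BL/10J at 7.02, C57BLKS/J(662) at 6.92, titled C57BR at 6.69 and C57L/J (668) at 6.55. The C57BL/6J arrays read 6.52, 7.03, 7.17, 7.30 and 7.27. No array of NOR/LtJ (9.31 and 9.52), NOD/ShiLtJ (9.17 and 9.29) or A/J (9.24 and 9.02) overlapped with them.

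**Figure D4:**
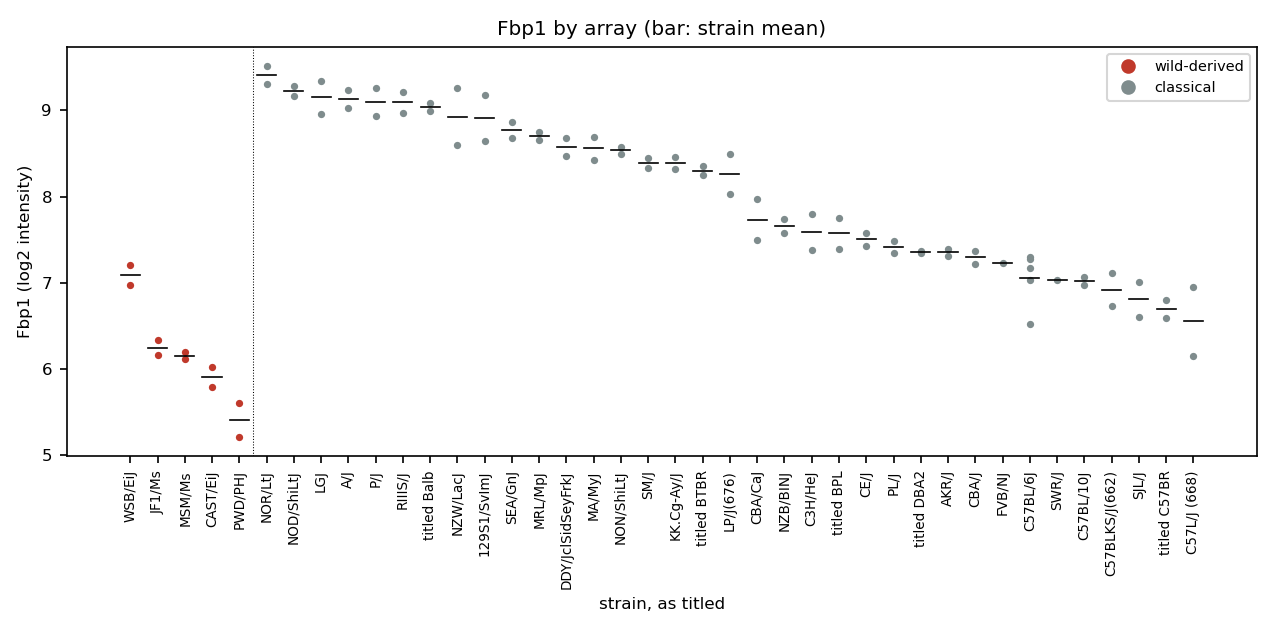
Fbp1 in each array by strain (log2 intensity), with a bar at the strain mean; wild-derived strains stand on the left, then classical strains by falling mean. The classical means step down between LP/J(676) at 8.26 and CBA/CaJ at 7.73, and 4 wild-derived strains lie below all of them.

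Of 10 measured neighbours of Fbp1, 0 were called between the origins in limma, and 1 had an unadjusted p under 0.05; 12.2% of all probe sets were called. Its relative and neighbour Fbp2, the muscle isoform, was dim, at 6.65 ± 0.11 (SD, n = 5) in wild-derived against 6.66 ± 0.10 (SD, n = 35) in classical strains (adjusted p = 0.911, limma). The genes most like Fbp1 over 40 strains lay on other chromosomes. Pctp, a lipid transfer protein, had a Pearson's r of -0.694, Galm, the mutarotase that interconverts forms of glucose, 0.693, and Stfa3, a cysteine protease inhibitor, 0.687. Over 35 classical groups these became -0.559, 0.480 and 0.474, so none followed Fbp1 as closely as Yod1 followed Pfkfb2.

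Pfkp, which catalyses the committed step, read 10.07 and 9.78 in CAST/EiJ, 8.72 and 8.80 in JF1/Ms, 9.14 and 8.37 in MSM/Ms, 9.10 and 9.01 in PWD/PHJ, and 7.89 and 8.01 in WSB/EiJ. Classical means ran from 7.15 in MA/MyJ, with arrays at 7.20 and 7.10, to 9.0 in NZW/LacJ, with a median of 8.19. CAST/EiJ stood alone at the top, while MA/MyJ at the bottom was followed by SWR/J (7.37, with 1 array) and AKR/J (7.53). The difference between origins was 0.70 ± 0.19 (SE; adjusted p = 0.0095, limma), and 0.44 without CAST/EiJ, with an adjusted p of 0.125. Of 10 neighbours of Pfkp, 2 were called, against the same 12.2% of all. Idi1, an enzyme of isoprenoid synthesis, differed by -1.33 ± 0.35 (SE) and the dim Akr1c20, an aldo-keto reductase, by 0.15 ± 0.04 (SE). The other phosphofructokinase subunits, Pfkl and Pfkm, had differences of -0.14 and -0.09 and were not called.

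Aldoc, the aldolase isoform known from brain, was dim outside CAST/EiJ. It read 7.73 and 8.03 there, while all other strain means lay at or below 6.99. Its called difference of 0.29 ± 0.10 (SE; adjusted p = 0.047, limma) was 0.06 without CAST/EiJ, with an adjusted p of 0.655, and the call was also lost with the cell-cycle or the monocyte list mean as a covariate. Aldoa, the aldolase isoform known from muscle, differed by -0.03 and was not called.

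Among the carriers, Slc2a1, the glucose transporter found in most cells, was higher in wild-derived strains. Its arrays read 10.50 and 10.33 in CAST/EiJ, 10.96 and 10.79 in JF1/Ms, 11.08 and 10.71 in MSM/Ms, 10.05 and 10.10 in PWD/PHJ, and 9.81 and 10.10 in WSB/EiJ. Classical means had a lowest value of 8.95, a median of 10.02 and a highest value of 10.52, so that JF1/Ms and MSM/Ms exceeded every classical group. The difference was 0.49 ± 0.16 (SE; adjusted p = 0.0324, limma). The call was lost without CAST/EiJ, JF1/Ms, MSM/Ms or SJL/J replicate 1, with JF1/Ms and MSM/Ms averaged, and with the mean of the cell-cycle genes as a covariate (adjusted p = 0.0647, limma), with differences of at least 0.38 and an adjusted p of up to 0.186 (limma) over all alternatives. Titled DBA2 was lowest, with arrays at 9.18 and 8.73.

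Slc16a3, the carrier that exports lactate, was lower. It averaged 10.70 ± 0.30 (SD, n = 5) in wild-derived against 11.01 ± 0.19 (SD, n = 35) in classical strains, with PWD/PHJ (10.41 and 10.31) and MSM/Ms (10.65 and 10.13) below every classical mean. The difference was -0.32 ± 0.10 (SE; adjusted p = 0.0244, limma). The call was lost without MSM/Ms or its replicate 2, PWD/PHJ or JF1/Ms replicate 2, with JF1/Ms and MSM/Ms averaged, and with the cell-cycle covariate (adjusted p = 0.0721, limma), with an adjusted p of up to 0.172 (limma) over all alternatives. Slc2a3, the high-affinity glucose transporter, differed by -0.11 and Slc2a6, a transporter of intracellular membranes, by -0.01; neither was called.

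Hk1, a hexokinase bound to mitochondria, averaged 9.95 ± 0.14 (SD, n = 5) in wild-derived against 9.74 ± 0.15 (SD, n = 35) in classical strains, a difference of 0.21 ± 0.07 (SE; adjusted p = 0.0419, limma). All 5 wild-derived means lay above the classical median. The call was lost in 15 of 97 alternatives, among them those without CAST/EiJ, JF1/Ms, MSM/Ms or PWD/PHJ and that with the monocyte covariate, with an adjusted p of up to 0.207 (limma). Hk2, the insulin-responsive form, and Hk3, a form rich in myeloid cells, each differed by -0.14 and were not called. The enzymes of lower glycolysis and lactate formation did not pass in either direction. Pgam1, phosphoglycerate mutase, came nearest at 0.20 ± 0.08 (SE; adjusted p = 0.0852, limma), with JF1/Ms (12.09), PWD/PHJ (11.96) and MSM/Ms (11.87) above the highest classical mean of 11.83. The 95% interval of the difference was -0.04 to 0.39 for Ldha, -0.24 to 0.11 for Pkm and -0.16 to 0.20 for Pgk1.

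In glycogen metabolism Gbe1, the branching enzyme, was the called member. Its arrays read 11.10 and 11.03 in CAST/EiJ, 11.24 and 11.51 in JF1/Ms, 11.23 and 11.41 in MSM/Ms, 11.24 and 11.30 in PWD/PHJ, and 10.94 and 10.92 in WSB/EiJ. Classical means ran from 10.16 in A/J to 11.49 in CBA/J, with a median of 10.65, so all 5 wild-derived means lay above the median but none above the range. The difference was 0.50 ± 0.15 (SE; adjusted p = 0.0215, limma), and the call was lost without JF1/Ms, MSM/Ms or PWD/PHJ. It was also lost with JF1/Ms and MSM/Ms averaged (adjusted p = 0.0875, limma), with the cell-cycle covariate (0.0808) and with the monocyte covariate (0.0752). Pgm1, a phosphoglucomutase that links glycogen to glycolysis, split the wild-derived strains instead. JF1/Ms (9.14 and 8.72), MSM/Ms (8.88 and 8.87) and PWD/PHJ (8.99 and 8.83) lay above every classical mean, while CAST/EiJ (7.36 and 7.36) stood at the bottom beside NZB/BINJ (7.01 and 7.71). Its mean difference of 0.29 ± 0.18 (SE) was not called (adjusted p = 0.295, limma). Glycogen synthase (Gys1) and the phosphorylases Pygl, Pygm and Pygb had differences between -0.19 and 0.05 and were not called.

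In the pentose phosphate branch Taldo1, transaldolase, was lower, at 10.80 ± 0.21 (SD, n = 5) in wild-derived against 11.04 ± 0.17 (SD, n = 35) in classical strains. The difference was -0.24 ± 0.08 (SE; adjusted p = 0.0499, limma), and this call was lost in 59 of 97 alternatives. Pgd (0.09), which makes NADPH, Tkt (0.10), transketolase, Pgls (-0.17), a lactonase, and Rpia (-0.22), ribose phosphate isomerase, were not called.

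Counted strain by strain and without a test, PWD/PHJ had 9 of 35 members outside the range of the 35 classical means (11.5% of all probe sets), JF1/Ms 8 (12.9%), MSM/Ms 7 (12.7%), CAST/EiJ 4 (11.7%) and WSB/EiJ 0 (5.12%). Fbp1 was below the range in all of these strains but WSB/EiJ. JF1/Ms and MSM/Ms shared Hk1, Pfkfb2, Pgam1, Slc2a1 and Pgm1 above the range. CAST/EiJ differed from them: only Pfkp and Aldoc lay above the range there, and Fbp1 and Taldo1 below it.

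Set against C57BL/6J, 30 combinations of a member and a strain passed an adjusted p under 0.05 with a difference of at least 1, over 39 contrasts that share the C57BL/6J arrays (1.62% of all probe sets and contrasts). They fell on 5 members. Fbp1 took 20, of which 18 were higher and 2 lower (CAST/EiJ by -1.15 and PWD/PHJ by -1.66). Pfkfb2 took 6, all higher. Pfkp differed by 1.68 in CAST/EiJ and by -1.10 in MA/MyJ, Aldoc by 1.2 in CAST/EiJ, and Slc2a1 by -1.06 in titled DBA2. In WSB/EiJ no member met both criteria.

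Related strains differed at few members and at few probe sets in all, with the same 1 exception for both. C57BL/10J and C57BL/6J differed at 0 of 35 members in limma (2.65% of all probe sets), and 8 had an unadjusted p under 0.05. CBA/J had less Pgm2, a phosphopentomutase, than CBA/CaJ, with arrays at 9.41 and 9.49 against 10.03 and 9.88 (-0.51 ± 0.13, SE; adjusted p = 0.0253, limma); 1.71% of all probe sets were called in that pair. NOD/ShiLtJ had less Slc2a6 than NOR/LtJ, with arrays at 10.65 and 10.71 against 11.22 and 11.47 (-0.67 ± 0.19, SE; adjusted p = 0.0254, limma); 5.56% of all were called. In both pairs the arrays of the strains did not overlap.

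NZB/BINJ against NZW/LacJ was the exception, with 2 members higher (24.1% of all probe sets were) and 17 lower (21.3% of all). Pkm, pyruvate kinase, read 11.78 and 11.67 in NZB/BINJ against 10.99 and 10.88 in NZW/LacJ, a difference of 0.79 ± 0.12 (SE; adjusted p = 2.99e-06, limma). Ldha, lactate dehydrogenase, went the other way, at 11.86 and 11.80 in NZB/BINJ against 12.74 and 12.76 in NZW/LacJ (-0.92 ± 0.12, SE; adjusted p = 5.9e-08, limma). Taldo1 was also higher (0.51). Among the lower members, Fbp1 (-1.27), Pgm1 (-1.07), Pfkp (-0.94), Ldha (-0.92), Pgm2 (-0.78) and Hk2 (-0.64) moved most. NZB/BINJ also had the highest list means of all strains for erythroid markers, at 6.90 against 6.63 in NZW/LacJ, and for B cell markers, at 6.57 against 6.13. These lists were mostly dim: 1 of 5 erythroid and 1 of 9 B cell genes reached a mean of 7, and 1 and 4 passed the F test. The cell-cycle mean of NZB/BINJ was 7.82 against 8.57 in NZW/LacJ, and the part of these markers in the difference was not tested. Without NZB/BINJ replicate 1, 1 member was higher (7.13% of all) and 12 lower (10.4% of all). Leaving out NZW/LacJ replicate 1 gave 2 and 11, with 5.98% and 10.7% of all, and leaving out NZB/BINJ replicate 2 gave 4 and 14, with 28.4% and 23.1%. Leaving out NZW/LacJ replicate 2 gave 1 and 14, with 24.4% and 20.8%.

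A few members followed the cell-cycle genes, which mark dividing cells, across the 40 strain means, as did many probe sets outside the members. Slopes are in log2 units of the member per log2 unit of the mean of 19 cell-cycle genes. Of the members 5 had a positive slope past the threshold (8.65% of all probe sets did) and 2 a negative one (9.33% of all). Rpia rose most steeply, by 0.32 ± 0.06 (SE; adjusted p = 0.000216, limma), followed by Tpi1 and Pgls (0.19 each), Gys1 (0.18) and Pfkl (0.12). Rpia read 8.17 and 8.97 in NON/ShiLtJ, which had the highest cell-cycle mean, and 7.76 and 7.96 in NOR/LtJ, which had the lowest. Pygm, a dim member, fell, with a slope of -0.12 ± 0.02 (SE; adjusted p = 4.67e-05, limma). Pygl, the phosphorylase known from liver, also fell, with -0.07 ± 0.02 (SE; adjusted p = 0.0106, limma). All 7 kept their calls without NON/ShiLtJ and NOR/LtJ and within the classical groups alone. Pearson's r with the list mean over 40 strains was 0.627 for Rpia and -0.691 for Pygm, with Spearman's rho of 0.631 and -0.703. The share of dividing precursors in the sorts was not measured.

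**Figure D5:**
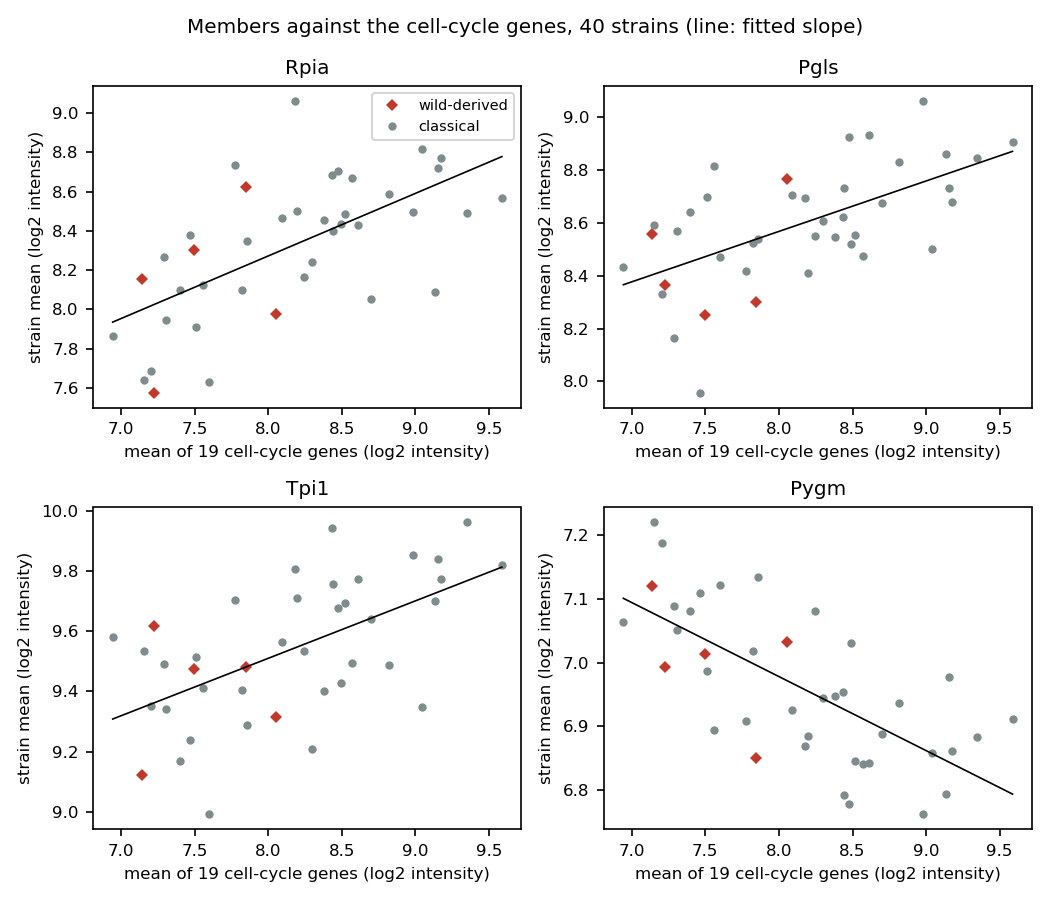
Strain means of Rpia, Pgls, Tpi1 and Pygm against the mean of 19 cell-cycle genes (both log2 intensity), with the fitted slope as a line; diamonds are wild-derived and circles classical strains. Rpia, Pgls and Tpi1 increase along the axis and Pygm decreases.

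The wild-derived strains had cell-cycle means of 7.14 to 8.05, within the classical range of 6.94 to 9.59, but all 19 cell-cycle genes had a lower mean in wild-derived than in classical strains. The median difference over these genes was -0.68, and 1 of them, Pcna, passed (-1.13 ± 0.31, SE; adjusted p = 0.0112, limma). Monocyte and macrophage markers had list means of 6.68 to 7.10 in wild-derived and 6.69 to 7.49 in classical strains, although Csf1r, the receptor for a macrophage growth factor, was higher by 0.45 ± 0.11 (SE; adjusted p = 0.00286, limma) in wild-derived strains. Of the 9 genes on that list 6 had a difference below 0, among them Adgre1 (-0.97), C1qb (-0.54) and C1qa (-0.36), which were not called. With the monocyte list mean as a covariate 3 members were higher and 3 lower: Hk1, Aldoc, Gbe1 and Taldo1 lost their calls. With the cell-cycle mean as a covariate 4 were higher and 2 lower: Aldoc, Slc2a1, Gbe1, Pfkfb3 and Slc16a3 lost theirs, and Pgam1 (0.26 ± 0.08, SE; adjusted p = 0.0331, limma) was called. Pfkfb2, Pfkp and Fbp1 kept their calls in both. Of the 13 neutrophil markers, S100a8 (-0.20) and Camp (-0.37) were lower in wild-derived strains. Kit, the stem cell factor receptor, had a difference of -1.54 ± 0.21 (SE; adjusted p = 1.5e-06, limma), and Siglecf, an eosinophil receptor, one of 0.54 ± 0.11 (SE; adjusted p = 0.000865, limma). Each was the called gene of 7 on its list, and the other genes of the mast cell list lay between -0.03 and 0.12. The eosinophil genes Epx, Prg2, Ccr3 and Il5ra lay at 0.07, -0.06, -0.16 and 0.003. Over the 7 eosinophil genes, 5 differences were above 0 and 2 below it, with a median of 0.065. The part of such cells in the members' differences was not tested further.

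The members did not vary as a block. Over the 435 pairs of the 30 members of a mean of at least 7, the median Pearson's r across 40 strains was 0.123, with 27 pairs at 0.5 or more and 3 at -0.5 or less. The closest pairs were Pfkl with Tpi1 (r = 0.729, rho = 0.716), Pgk1 with Ldha (0.703 and 0.71) and Tpi1 with Tkt (0.689 and 0.667). Fbp1 ran against Gbe1 (-0.588 and -0.588). Pfkp and Pfkfb2 had an r of 0.591 but a rho of 0.326, and an r of 0.295 within the classical groups. All such pairs share arrays, and inbred strains are related by descent. The same figures for pairs of other bright genes are not given here, so the members are not compared with them.

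Among 74 measured genes of the same pathways outside the 35, 9 (12.2%) were called between the origins, the share over all probe sets. Of 15 other glycolytic enzymes, wild-derived strains had higher values of Eno2 (0.21) and Pgam2 (0.20), both dim. They had less of Gpd2 (-0.22), a mitochondrial glycerol phosphate dehydrogenase. Of 16 other carriers and phosphatases, 0 were higher in limma (2 at an unadjusted p under 0.05) and 1 was lower, G6pc3 (-0.29), the glucose phosphatase whose loss causes neutropenia in people. Of 13 genes for pyruvate entry into mitochondria, 2 were higher and 0 lower in limma, also 0 lower at an unadjusted p under 0.05. Pdk3, a kinase that shuts off pyruvate dehydrogenase, averaged 11.32 ± 0.71 (SD, n = 5) in wild-derived against 10.10 ± 0.19 (SD, n = 35) in classical strains (1.22 ± 0.14, SE; adjusted p = 4.3e-08, limma). Pdhx, a subunit of that complex, was dim and 0.40 higher. Of 22 other glycogen genes, Gyg, the primer of glycogen synthesis, was higher by 0.52 ± 0.07 (SE; adjusted p = 5.15e-07, limma) and Phka2, a phosphorylase kinase subunit, lower (-0.46). Of 8 other pentose phosphate genes 1 was higher, Rbks, ribokinase (0.29).

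Targets of hypoxia-inducible factors outside the pathway moved both ways, with 3 higher (6.64% of all probe sets) and 3 lower (5.55% of all) of 19 measured. Higd1a (0.68), which was dim, and Egln1 (0.51), the oxygen sensor, were higher. Plin2 (-0.97), a lipid droplet coat protein, and P4ha1 (-0.43), a collagen hydroxylase with a mean of 6.98, were lower. Plin2 averaged 7.3 in JF1/Ms but 10.8 in CAST/EiJ, 10.5 in MSM/Ms, 11.3 in PWD/PHJ and 10.8 in WSB/EiJ, against a classical mean of 11.1. Of 22 regulators of glycolysis, Arnt (0.16), a partner of those factors, was higher and Mlx (-0.22), a partner of glucose-sensing factors, lower.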

How the data were processed

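The deposited table holds intensity values on a linear scale for 24922 probe sets. Per the submitters' processing notes, the tools were RMA and Affymetrix Power Tools, without versions; the build is not given in the sources used here. Values were converted to log2 with no further scaling. Of the probe sets, 21425 carry 1 symbol in the platform annotation, 1399 carry several and 2098 lack one; the brightest single-symbol probe set stands for a gene.

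limma 3.58.1 (lmFit, eBayes) under R 4.3.3 was run on all probe sets, with Benjamini-Hochberg adjustment over all of them and a threshold of 0.05. A fit of group means over 81 arrays, grouped by title, gave the F test, the contrasts with C57BL/6J and the pairs; strain means gave the comparison of origins and the slopes. Origin was assigned from common knowledge of strain names. Spread is pooled, so groups of 1 array are assumed as variable as the rest. The tests were checked on simulated data.

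Every member could be named, up to 4 genes of each other list by size, and the 3 genes most like Pfkfb2 and Fbp1. Of the cell type lists, any gene whose value stands beside a result could be named. The members and lists were chosen with earlier results of these data known. The number of arrays limits the precision.

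Replicate numbers did not pair samples: over 1190 pairs of same-numbered arrays in 35 groups the median correlation of deviations was 0.017 (-0.574 to 0.696), and 31.6% exceeded 0.1. Alternatives changed the scaling, the variance prior, the brightness filter, the grouping, the covariates, the block and the arrays or strains included.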

Additional observations from a re-analysis of the deposited data

Results flagged for a closer look

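In 4 of 70 groups of 5 values checked, 1 value lay far from the others, with a gap to its nearest neighbour above Dixon's critical share of 0.71 of the group's range; chance alone gives about 1 in 20. Ldha in PWD/PHJ had a strain mean of 12.022, below the other 4 wild-derived means (12.452 to 12.604) and the classical mean of 12.242. Among the C57BL/6J arrays, Hk3 read 10.794 in replicate 1, against 11.128 to 11.180 in the other arrays. Slc16a3 also read low in replicate 1, at 10.615 against 11.041 to 11.137. These 2 readings were not isolated. Replicate 1 was the lowest of the 5 arrays for many other members, such as Tkt, Slc2a1 and Aldoa. For some, such as Gbe1 and Aldoc, it was the highest. It is 1 of the 5 arrays behind every contrast with C57BL/6J. Pygm read high in replicate 3, at 7.337 against 6.99 to 7.09.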

How the results depend on the processing

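Up to 97 alternatives were run for each result and none reversed a direction. Pfkfb2 (2.01 to 2.68) and Fbp1 (-2.11 to -1.69) kept their calls in every one, and Pfkp lost its call when CAST/EiJ was left out. The other 7 calls between origins were each lost under several settings. With a trended and robust prior 2 members were lower; with JF1/Ms and MSM/Ms averaged, 2 were higher and 1 lower; with the cell-cycle covariate 4 were higher, of which Pgam1 was not called before, and 2 lower; with the monocyte covariate 3 were higher and 3 lower. For negative slopes, 1 remained at a mean of at least 7 and 1 without the groups of conflicting labels; 8 slopes were positive within classical strains. Leaving out arrays or strains in turn gave 33 to 35 members differing among strains, 11 to 13 by at least 2-fold, 2 to 7 higher and 1 to 4 lower between origins, 29 to 32 calls against C57BL/6J, 15 to 23 in the pairs, 5 positive and 2 negative slopes, and 24 to 33 combinations of a member and a wild-derived strain outside the classical range. Without JF1/Ms 2 were higher and 2 lower, without MSM/Ms 2 and 1, without PWD/PHJ 2 were lower, and without SJL/J replicate 1, 3 were higher. The lower members were 1 without JF1/Ms replicate 2 or MSM/Ms replicate 2, and 2 without replicate 1 of A/J, C57L/J (668) or WSB/EiJ, replicate 2 of CBA/J, FVB/NJ, LP/J(676), NON/ShiLtJ, NZB/BINJ or SEA/GnJ, or replicate 4 of C57BL/6J. With the replicate block, 33 members differed among strains, 6 were higher and 3 lower between origins; Pfkfb3 (-0.193) lost its call, and no other call between origins changed.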

Other observations

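Counted without a test, some strains stood at an end for several members. How often each strain stands at an end over all probe sets was not counted, so these counts are not compared with other genes. Titled BPL had the lowest mean for 4 members, among them Tpi1 (8.99), Pfkl (7.05) and Gys1 (9.43), and titled BTBR the highest for those 3 (9.96, 7.77 and 10.60). Their cell-cycle list means were 7.60 in titled BPL and 9.35 in titled BTBR. JF1/Ms was highest for 4 members and PWD/PHJ lowest for 4. FVB/NJ, with 1 array, was highest for Pgk1 (11.67), Pygb (7.65) and Rpia (9.06), and also had the highest mean of the T and NK cell markers, at 6.56.

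Of the genes outside the 35, Slc16a7, a monocarboxylate carrier, split the wild-derived strains: CAST/EiJ was highest of all strains at 8.72 and PWD/PHJ lowest at 5.08. Plin2 was low in JF1/Ms, at 7.27, against a classical mean of 11.10. Pgk1 and Pgam1 have a second probe set, which followed the brighter one across 40 strains with a Pearson's r of 0.997 and 0.976. The 2 probe sets of Ldhb, both dim, had an r of 0.580.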
